A study of Mus musculus with 74 samples.

Results

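The comparison concerns macrophages of the sciatic nerve in bone-marrow grafted ALS mice whose donor and host both carried the mutant human SOD1-G93A transgene. It set 3 mice sampled at end stage against 3 mice sampled in early symptoms, chosen by the labels for cell type, donor, host and stage. These are 6 of 74 libraries in the series and 6 of the 11 nerve libraries in the grafted table. All hosts were female mutant hSOD1-G93A mice on a C57BL/6J background, grafted with bone marrow at disease onset. The donors of both groups were hSOD1-G93A mice as well, so marrow-derived and host cells have the same genotype and cannot be told apart in these data. Each library came from 1 mouse, with both sciatic nerves pooled. Cells were dissociated in the cold without enzyme and taken with magnetic beads against CD11b (Itgam). Neutrophils and monocytes carry CD11b too, so the beads do not remove them. No age is stated for the grafted mice in the sources used here, so disease stage, age and time since the graft cannot be told apart. The other nerve libraries of the grafted table came from G93A hosts with marrow from mice carrying wildtype human SOD1 (WT marrow), 2 in early symptoms and 3 at end stage. They entered the fit to estimate the spread between mice and are described only where they are compared.

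Macrophages of a healthy peripheral nerve are a resident population that clears debris and presents antigen, and it is joined by blood monocytes when axons degenerate. In SOD1-G93A mice motor axons in the sciatic nerve degenerate, and macrophages gather along them. Genes that describe such cells include the CSF1 receptor and Cd68 for macrophage identity, Lyve1, Mrc1 and Folr2 for resident cells, Ccr2 and Ly6c2 for monocytes, class II MHC genes for antigen presentation, and lysosomal, lipid-handling and complement genes for the clearance of myelin.

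All values are FPKM, fragments scaled to transcript length and library size, as the authors deposited them. Read depth is unknown. FPKM summed to between 615421 and 755253 per grafted nerve library, and the 6 libraries each had between 9419 and 10025 genes at 1 FPKM or more. Within the nerve table, log2(FPKM + 1) of early replicate 1 correlated with the other 5 libraries at r = 0.77 to 0.80 across genes, and early replicate 2 at 0.80 to 0.86. Early replicate 3 and the end-stage libraries correlated with one another at 0.89 to 0.94. Early replicate 1 therefore stood apart from the rest of the 6. Over all 10 other nerve libraries it was at 0.70 to 0.81, WT-marrow end-stage replicate 3 at 0.71 to 0.82 and WT-marrow end-stage replicate 1 at 0.68 to 0.73.

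Neutrophil transcripts were abundant in these libraries and varied widely between mice of the early stage. S100a8, a calcium-binding protein that fills neutrophils, was listed at 8355, 30866 and 71623 FPKM in early replicates 1, 2 and 3 and at 42063, 28891 and 34623 FPKM in end-stage replicates 1, 2 and 3. The 13 neutrophil markers together made up 4.2%, 14.8% and 31.1% of all FPKM in early symptoms and 23.1%, 18.7% and 18.9% at end stage, against 0.0519% to 3.19% in the 6 microglia libraries of G93A-marrow mice. Mpo and Elane, proteins of the first granules made by immature neutrophils, were at 0.10 and 0.08 FPKM in early replicate 1, and at 963 to 1506 and 1179 to 1342 FPKM in the other early libraries. At end stage they were at 428 to 1772 and 498 to 1347 FPKM, so only early replicate 1 lacked them among the 6. Haemoglobin transcripts of red cells were present throughout, with Hba-a1 between 5047 and 14400 FPKM.

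Macrophage identity genes were expressed in every library, and their levels split the mice of each stage. Itgam, the selected surface protein, was at 276, 184 and 319 FPKM in early symptoms and at 323, 330 and 264 FPKM at end stage. Csf1r, the receptor that macrophages need to survive, was at 432, 351 and 62.2 FPKM in early symptoms and at 97.7, 299 and 102 FPKM at end stage. Cd68, a protein of phagocyte endosomes, was at 501, 757 and 92.7 FPKM in early symptoms and at 85.7, 447 and 132.4 FPKM at end stage. Each group held libraries high and low in both genes, and the groups overlapped. Adgre1, the F4/80 antigen, was at 97.9, 31.2 and 11.0 FPKM in early symptoms and at 21.96, 35.7 and 41.6 FPKM at end stage. Sod1, the mouse gene, was at 27.9, 33.2 and 10.6 FPKM in early symptoms and at 14.3, 9.26 and 17.1 FPKM at end stage, and it does not measure the human transgene.

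Microglial and resident-macrophage markers divided the libraries in another way. Tmem119, a gene of homeostatic microglia, was at 26.99, 233 and 3.40 FPKM in early symptoms and at 2.68, 161 and 1.71 FPKM at end stage. Early replicate 2 and end-stage replicate 2 were thus high in a microglial marker although the tissue is nerve. Their mean log2(FPKM + 1) over 8 microglia markers was 6.82 and 6.22, against 1.55 to 4.73 in the other 4 libraries and 8.25 to 8.74 in the microglia libraries. Among resident markers, Lyve1 was listed at 0.00, 3.00 and 5.08 FPKM in early symptoms and at 0.12, 0.00 and 0.00 FPKM at end stage, and Cd209b at 0.00 FPKM in 5 of the 6 libraries and 0.02 FPKM in 1. Mrc1, the mannose receptor, was at 41.6 FPKM in early replicate 1 and at 0.39 to 2.32 FPKM in the other 5. The mean log2(FPKM + 1) over the resident list, of which 14 of 16 measured genes passed the filter described below, was 5.10, 3.98 and 2.43 in early symptoms and 2.63, 2.95 and 2.80 at end stage. Cd68 and Csf1r were present in all 6 libraries, whereas Itgam is shared with neutrophils, and neutrophil markers took a larger share of FPKM than the macrophage core markers did (0.579% to 1.1%). Schwann cell markers were at lower levels, with a mean log2(FPKM + 1) over the list of 0.99 to 3.39. In such bulk libraries, fewer cells of a type and less RNA per cell cannot be told apart.

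**Figure D1:**
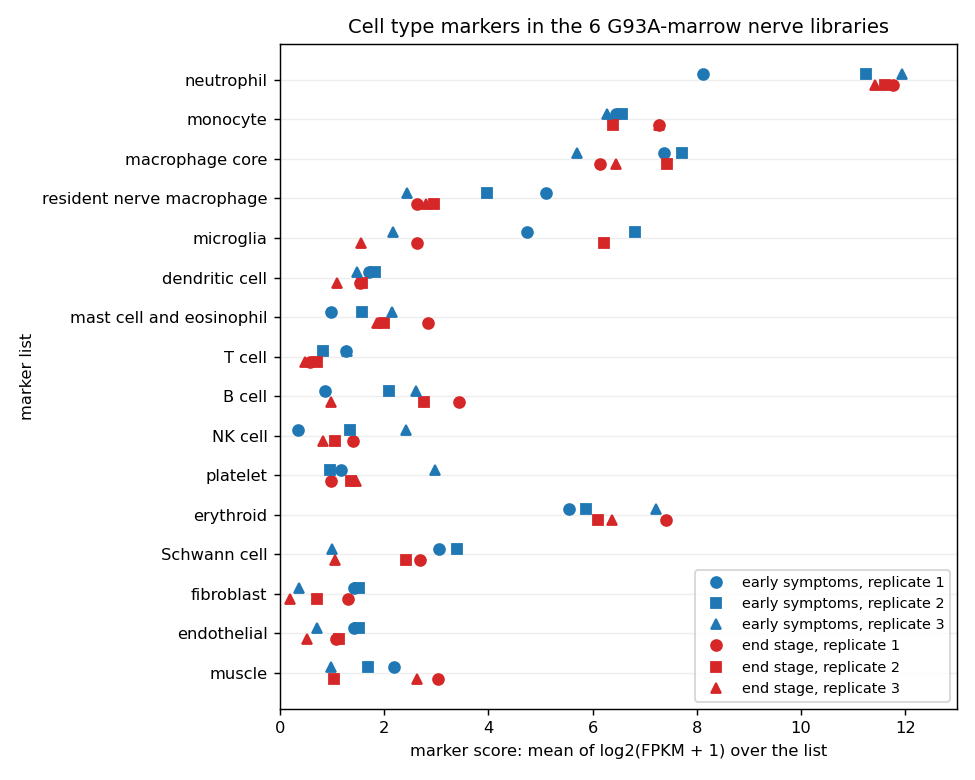
Mean log2(FPKM + 1) over each of 16 marker lists (horizontal axis) in the 3 early-symptom libraries (blue) and the 3 end-stage libraries (red), with the symbol giving the replicate. Neutrophil scores run from 8.11 in early replicate 1 to 11.94 in early replicate 3, and microglia scores are 6.82 and 6.22 in the second replicate of each stage and at most 4.73 elsewhere.

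No gene passed the test for a difference between end stage and early symptoms. The comparison was made with limma, a linear model with moderated variances, on log2(FPKM + 1) of the 10299 genes with a mean of at least 1 FPKM over the 11 grafted nerve libraries, and genes were called where the p adjusted by the Benjamini-Hochberg method was under 0.05. None was called (0 of 10299, 0.0%), and the smallest adjusted p was 0.95. At an unadjusted p under 0.05 there were 435 genes (4.22%), 248 higher (2.41%) and 187 lower (1.82%) at end stage. The median log2 difference over all genes was -0.04, with a median standard error of 0.64 per gene. A fit of the 6 libraries alone also called 0 genes by limma, with 738 at an unadjusted p under 0.05.

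The spread between mice was wide and larger in early symptoms. The median SD of a gene over the 3 mice was 0.63 on the log2 scale in early symptoms and 0.41 at end stage, and 7173 of the 10299 genes had the larger SD in early symptoms. It was 0.82 over the 3 WT-marrow end-stage libraries, which entered the same fit and its estimate of the spread. The median absolute difference between the stage means was 0.44. The stages held 22.6% of the sum of squares over the 6 libraries. Any split of 6 libraries into groups of 3 holds a sizeable part of it by chance alone. The part that chance gives was not computed here, so the 22.6% does not show a difference between the stages. For 2895 genes all 3 end-stage values lay within the range of the early values, and for 963 the reverse held. In 731 genes (7.1%) all 3 end-stage libraries were above all 3 early ones, and in 702 genes (6.82%) all were below. These shares are the background against which counts of separated genes in the lists below are read.

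The largest differences without overlap are described next, 12 in each direction among genes of at least 5 FPKM in the higher group. None passed the test, each with an adjusted p of 0.95 by limma. The 12 higher genes had log2 differences of 2.11 to 4.65 and unadjusted p of 0.00124 to 0.0882, and the 12 lower genes had differences of -2.03 to -3.80 and unadjusted p of 0.00362 to 0.0825.

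Prg2 had the largest difference of the higher group. Prg2, the major basic protein of eosinophil granules (mm10 chr2:84980459-84983632), was at 0.03, 7.73 and 15.4 FPKM in early symptoms and at 1010, 50.6 and 43.2 FPKM at end stage, a log2 difference of 4.65 ± 1.38 (SE). End-stage replicate 1 was far above the other end-stage libraries, which were still above every early one. Its neighbour Prg3, an eosinophil homologue, was at 0.00, 0.00 and 0.09 FPKM in early symptoms and at 27.4, 1.85 and 0.71 FPKM at end stage. Epx, eosinophil peroxidase, was at 18.8 FPKM in end-stage replicate 1 and at 0.04 FPKM or less in the other 5. Hdc, which makes histamine, was at 19.4, 108 and 108 FPKM in early symptoms and at 224, 120 and 249 FPKM at end stage. The mast cell genes Mcpt4, Tpsb2, Cma1 and Ms4a2 were at 1.56 FPKM or less in each of the 6 libraries, and Siglecf, a receptor of eosinophils, overlapped between the stages at 4.12 to 19.8 FPKM. The mast cell and eosinophil list had a median of 0.45 over 7 tested genes (0.15 to 1.13 with 1 library left out), with Prg2 and Hdc separated and higher.

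Pnpla2, the triglyceride lipase of lipid droplets (chr7:141455188-141460743), was at 35.9, 14.02 and 54.8 FPKM in early symptoms and at 150, 71.0 and 278 FPKM at end stage, a log2 difference of 2.21 ± 0.61 (SE). Atg2a, a lipid carrier of autophagy, was at 1.16, 1.65 and 5.00 FPKM in early symptoms and at 15.6, 5.52 and 24.4 FPKM at end stage. Acss2, which makes acetyl-CoA from acetate, was at 0.00, 0.03 and 4.99 FPKM in early symptoms and at 8.91, 5.52 and 12.0 FPKM at end stage. Foxo3, a transcription factor of starvation and stress programmes, was at 0.86, 0.00 and 3.69 FPKM in early symptoms and at 9.14, 4.02 and 17.8 FPKM at end stage. In each of these 4 genes the lowest end-stage value was end-stage replicate 2, close above the highest early library.

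The smallest unadjusted p of the whole table, 0.00124, belonged to Sema6b, a transmembrane semaphorin that guides axons (chr17:56123085-56140345). It was at 0.00, 0.02 and 1.38 FPKM in early symptoms and at 7.83, 4.94 and 19.6 FPKM at end stage, a log2 difference of 2.93 ± 0.70 (SE). Crispld2, a secreted protein that binds bacterial lipopolysaccharide (chr8:119992438-120052794), was at 6.38, 76.3 and 66.2 FPKM in early symptoms and at 295, 112.2 and 198 FPKM at end stage. Map3k9, a kinase upstream of JNK, was at 2.83, 0.02 and 4.49 FPKM in early symptoms and at 23.5, 6.49 and 37.3 FPKM at end stage. The remaining higher genes were Enthd2, Il21r and Rasl11b, with log2 differences of 2.49, 2.37 and 2.15. The early library with the lowest value was replicate 1 in 7 of the 12 genes and replicate 2 in 5.

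Early replicate 1 held the highest value in all 12 of the lower genes. Cd2, an adhesion receptor of T and NK cells (chr3:101275900-101287939), was at 268, 15.9 and 4.91 FPKM in early symptoms and at 1.81, 2.35 and 0.07 FPKM at end stage, a log2 difference of -3.80 ± 1.23 (SE). Clec4b1, a lectin receptor of dendritic cells and monocytes (chr6:123049962-123071555), was at 321, 23.0 and 7.79 FPKM in early symptoms and at 3.46, 2.77 and 1.63 FPKM at end stage. Klrk1, the NKG2D receptor of NK and T cells, was at 84.1, 14.9 and 5.47 FPKM in early symptoms and at 3.58, 1.01 and 0.01 FPKM at end stage. Its feature spans chr6:129594491-130061533, a stretch that holds related receptor genes, so its reads may not be from Klrk1 alone. Other T and NK cell genes differed in level. The mean log2(FPKM + 1) over 7 NK cell markers was 0.34, 1.34 and 2.42 in early symptoms and 1.41, 1.05 and 0.83 at end stage. Of these markers, 2 had a mean of at least 5 FPKM over the 11 nerve libraries. Over 7 T cell markers, Cd2 among them, the mean was 1.27, 0.82 and 1.28 in early symptoms and 0.57, 0.71 and 0.47 at end stage. Cd2 was chosen for its difference between these same libraries, so this mean is not independent of that choice. Of 4 T cell markers tested, 2 had differences above 0 and 2 below. Their median difference was -0.23, and -0.44 to 0.18 with 1 library left out. Cd3e was at 0.21 FPKM in early replicate 3 and listed at 0.00 FPKM in the other 5 libraries, and Cd8a was at 0.02 FPKM or less in all 6. Prf1, the perforin of killer cells, was at 3.97 FPKM in early replicate 3 and at 0.06 FPKM or less in the other 5.

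Cd36, a scavenger receptor that takes up oxidised lipid (chr5:17781690-17888959), was at 173, 32.3 and 15.1 FPKM in early symptoms and at 6.42, 5.74 and 14.3 FPKM at end stage, a log2 difference of -2.31 ± 0.81 (SE). Tec, a kinase of antigen-receptor signalling, was at 61.9, 31.7 and 12.3 FPKM in early symptoms and at 5.03, 6.86 and 3.13 FPKM at end stage. Abcg3, an ABC transporter, was at 25.2, 9.46 and 2.21 FPKM in early symptoms and at 0.14, 0.14 and 0.02 FPKM at end stage. The other lower genes were Upb1, Adgrg5, Cav2, Cluh, Steap3 and Phf11a, with log2 differences of -2.03 to -2.88. Without early replicate 1 the median size of the difference over the 12 lower genes was 1.84 in place of 2.34, and that over the 12 higher genes was 2.25 in place of 2.37.

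**Figure D2:**
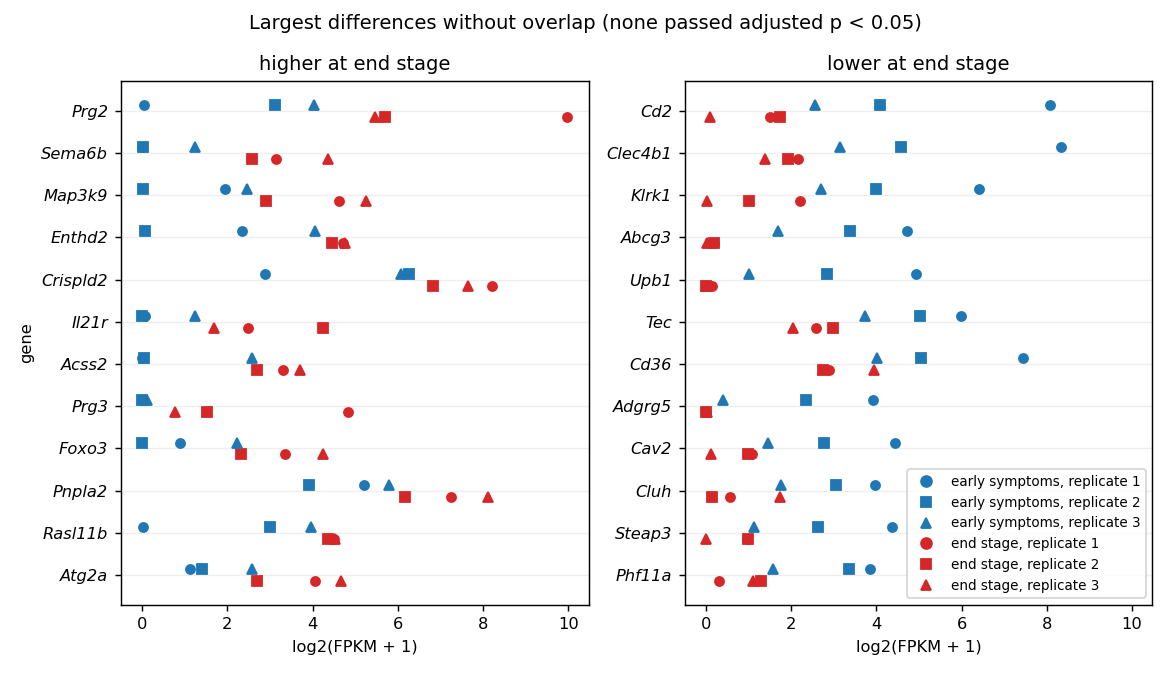
Levels as log2(FPKM + 1) of the 12 genes with the largest higher and the 12 with the largest lower values at end stage among genes whose libraries do not overlap, with early libraries in blue, end-stage libraries in red and the symbol giving the replicate. Early replicate 1 is the highest library in all 12 lower genes, and end-stage replicate 1 stands far above the rest for Prg2.

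Gene lists were described by their members' median difference, set beside the median of -0.04 over all genes, and by the number of members whose groups did not overlap. No member of any list was called by limma. Leaving out 1 of the 6 libraries moved the median by over 1.5 times, or turned its sign, in all 37 lists, and turned the sign in 18 of them. A range in parentheses after a median is that with 1 library left out.

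The macrophage core list was split by gene. Of 11 members measured, Spi1 and Itgb2 were separated and higher at end stage, none was lower, and the median difference was -0.24 (-1.43 to 0.09), above 0 without early replicate 1, early replicate 2 or end-stage replicate 1. Spi1, which encodes the myeloid transcription factor PU.1 and is also expressed in neutrophils, was at 270, 345 and 421 FPKM in early symptoms and at 527, 521 and 686 FPKM at end stage, a log2 difference of 0.75 ± 0.29 (SE). The resident nerve macrophage list had a median of -0.78 over 14 tested members with none separated. It was -0.27 without early replicate 1 and -1.65 without early replicate 3. Its largest difference was in Retnla, a secreted protein induced in alternatively activated macrophages (chr16:48842551-48844461). Retnla was at 48069, 398 and 3.30 FPKM in early symptoms and at 4.48, 2.60 and 14.3 FPKM at end stage, a log2 difference of -6.02 ± 2.60 (SE, unadjusted p = 0.0387 by limma). One mouse set the early mean, and early replicate 3 lay among the end-stage libraries. Mrc1, Folr2 and Mgl2 were likewise highest in early replicate 1, with log2 differences of -1.22, -2.31 and -1.91.

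Monocyte genes did not move as a block. Ccr2, the receptor that brings monocytes out of the marrow, was at 506, 109 and 32.3 FPKM in early symptoms and at 101, 47.0 and 46.3 FPKM at end stage, and the groups overlapped. Chil3, a chitinase-like protein of monocytes, neutrophils and alternatively activated macrophages, was at 789, 2420 and 8568 FPKM in early symptoms and at 12324, 6222 and 18729 FPKM at end stage, a log2 difference of 2.15 ± 0.78 (SE). Only end-stage replicate 2 was below an early library. Hp and Vcan had log2 differences of 1.65 and 1.98, and Ly6c2 one of 1.0. The monocyte list had a median of 0.58 over 11 members (0.23 to 0.90) with none separated.

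All 13 neutrophil markers had positive differences, with a median of 1.07. Csf3r, the receptor for G-CSF (chr4:126024659-126044975), was the single separated member, at 76.6, 294 and 401 FPKM in early symptoms and at 698, 600 and 596 FPKM at end stage, a log2 difference of 1.59 ± 0.55 (SE). The list median was 0.04 without early replicate 1, the library with the least neutrophil RNA. With terms for the microglia and neutrophil scores in the fit it was -0.01. The neutrophil score is the mean of these same markers, so that value was largely fixed in advance. The dendritic cell list had a median of -1.22 over 5 tested genes (-1.21 to -0.65), with 1 separated in the other direction, and a median of -0.19 over 8 genes with no expression filter. That gene, Flt3, the growth factor receptor of dendritic cell precursors, was at 2.50, 4.24 and 2.79 FPKM in early symptoms and at 29.7, 4.75 and 29.4 FPKM at end stage. For the remaining lists, the member with the smallest p had an unadjusted p of 0.0656 or more (Dcn for fibroblasts, Pf4 for platelets, Ckm for muscle, Klf1 for erythroid cells, Cldn5 for endothelium, Cd22 for B cells, Pmp22 for Schwann cells and Gpr34 for microglia).

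Antigen presentation by class II MHC had the lowest median of the pathway lists, -1.45, with 11 of 12 members below 0 and none separated. H2-Ab1, the beta chain of I-A (chr17:34263227-34269418), was at 11668, 1530 and 407 FPKM in early symptoms and at 1058, 391 and 384 FPKM at end stage, a log2 difference of -1.84 ± 1.05 (SE). Cd74, the invariant chain, followed the same libraries, at 20400, 2852 and 719 FPKM in early symptoms and at 1830, 604 and 696 FPKM at end stage. H2-DMb1, which helps load peptide, had a log2 difference of -1.81 and the smallest p of the list, 0.0678 unadjusted by limma. Early replicates 1 and 2 were the highest libraries for H2-Ab1 and Cd74, and early replicate 3 lay within or near the end-stage range. The median was -0.36 without early replicate 1 and -2.59 without early replicate 3. Class I genes had a median of 0.02 over 11 tested genes (0.00 to 0.31), with H2-D1 separated and higher. B2m, the light chain they share, was separated and lower, at 1295, 1640 and 988 FPKM in early symptoms and at 704, 983 and 588 FPKM at end stage.

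Spp1 and Apoe, genes of phagocytes that clear myelin and debris, were highest in the replicates with most microglial transcripts. Spp1, osteopontin, was at 214, 1722 and 30.1 FPKM in early symptoms and at 14.4, 2218 and 4.02 FPKM at end stage. Apoe, the lipid carrier of such cells, was at 2493, 14966 and 211 FPKM in early symptoms and at 933, 11477 and 1805 FPKM at end stage. The second replicate of each stage was the highest of its group in both genes, and the groups overlapped. The disease-associated phagocyte list had a median of -0.67 over 23 genes with none separated, and Lpl, lipoprotein lipase, its member with the smallest p, was at 1131, 211 and 10.1 FPKM in early symptoms and at 1.44, 104 and 10.7 FPKM at end stage. Lpl was highest in early replicate 1. The list median was -0.03 without early replicate 2 and -1.29 without early replicate 3. Microglial marker scores were high in the second replicate of each stage, as were Spp1 and Apoe, and their part in these values was not tested. The list's median was 0.12 with terms for the microglia and neutrophil scores in the fit, which were chosen after seeing the data.

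The lysosome list had a median of -0.34 over 23 genes (-0.95 to 0.08), with 7 members above 0 and 16 below. Of the 23, 3 were separated and higher and 1 was separated and lower. Cln3, a lysosomal membrane protein, was at 54.2, 36.9 and 65.4 FPKM in early symptoms and at 96.6, 95.1 and 79.8 FPKM at end stage. Lamp2, a structural lysosomal membrane protein, was at 216, 274 and 133.97 FPKM in early symptoms and at 104, 123.2 and 132.89 FPKM at end stage. Tfeb, the transcription factor of lysosome genes, and Atp6v1a, a proton pump subunit, had log2 differences of 0.59 and 0.33. In the list of lipid efflux and storage, Cd36 and Pparg were separated and lower among 14 members, with a median of -0.66 (-1.20 to -0.20). Pparg, a nuclear receptor of lipid uptake that controls Cd36, was at 10.2, 9.42 and 3.51 FPKM in early symptoms and at 1.39, 0.82 and 1.11 FPKM at end stage. Cholesterol synthesis genes had a median of -0.10 over 16 genes (-0.32 to 0.11), with Hmgcs1, the enzyme that makes HMG-CoA, separated and lower.

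Complement genes had values on both sides of 0. The list of complement and Fc receptor genes had a median of -0.35 over 15 genes (-1.57 to 0.53), with 4 above 0 and 11 below. C3, the central complement protein (chr17:57203967-57228136), was at 18.8, 37.8 and 130.6 FPKM in early symptoms and at 164, 137.6 and 127.2 FPKM at end stage, a log2 difference of 1.62 ± 0.56 (SE), and the groups overlapped through early replicate 3. C5ar1, the receptor for C5a, was separated and higher, at 76.3, 280 and 252 FPKM in early symptoms and at 320, 323 and 382 FPKM at end stage. The C1q genes instead tracked the microglial libraries, with C1qb at 1880, 4536 and 52.6 FPKM in early symptoms and at 56.0, 3290 and 286 FPKM at end stage. Of 17 chemokine receptors and integrins, C5ar1 and Itgb2 were separated and higher, and the median was 0.26 (-0.08 to 0.31). Mmp9, a gelatinase stored in neutrophil granules, was at 363, 1059 and 1554 FPKM in early symptoms and at 2148, 2079 and 1725 FPKM at end stage. It was separated, as was Adam8, a protease of leukocytes, and the matrix list had a median of 0.16 over 11 genes (-0.40 to 0.38), below 0 without early replicate 1, early replicate 3 or end-stage replicate 2.

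Of 7 genes of the oxidative burst, 6 had positive differences and none was separated, with a median of 0.45 (0.09 to 0.84). Cybb, the catalytic subunit of the phagocyte NADPH oxidase, was at 285, 391 and 705 FPKM in early symptoms and at 430, 427 and 406 FPKM at end stage, a log2 difference of -0.03 ± 0.38 (SE). Its partner Ncf1 had a log2 difference of 0.80. Antioxidant genes had a median of -0.23 (-0.21 to 0.02), and Gsr, glutathione reductase, was the only one of 16 below an unadjusted p of 0.05, at 83.6, 302 and 360 FPKM in early symptoms and at 371, 355 and 656 FPKM at end stage.

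Interferon-induced genes mostly had lower values at end stage. Of 21 tested members, 17 were below 0, 4 were separated and lower, none was separated and higher, and the median was -0.64 (-0.84 to -0.28). Cxcl10, a chemokine that draws T cells (chr5:92346641-92348890), was at 9.24, 9.85 and 3.45 FPKM in early symptoms and at 2.15, 0.49 and 0.83 FPKM at end stage, a log2 difference of -1.95 ± 0.60 (SE, unadjusted p = 0.00665 by limma). Ifit1, an antiviral RNA-binding protein, was at 3.43, 15.4 and 4.78 FPKM in early symptoms and at 1.10, 3.27 and 1.16 FPKM at end stage. Ddx58, the RNA sensor RIG-I, and Xaf1 were the other separated members. Irf7 and Stat2, which encode regulators of the response, had log2 differences of 0.13 and 0.35, both with overlap. The list median was between -0.84 and -0.28 in the 19 other settings tried, with the value nearest 0 coming without end-stage replicate 3.

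Inflammatory genes did not share a direction. Of 14 tested members, 6 were above 0 and 8 below, with a median of -0.43 (-0.69 to -0.04). Nfkbia, the NF-kB inhibitor that NF-kB itself induces (chr12:55489409-55492647), was at 121.3, 262 and 264 FPKM in early symptoms and at 600, 367 and 1583 FPKM at end stage, a log2 difference of 1.79 ± 0.56 (SE). Il1b was at 59.0, 58.9 and 106 FPKM in early symptoms and at 111.9, 90.8 and 48.3 FPKM at end stage, with overlap. Ccl7, a monocyte chemokine, was separated and lower, with 1.65, 15.8 and 0.44 FPKM in early symptoms and at most 0.33 FPKM at end stage. Tnf, Ccl2, Ccl3 and Ccl4 had log2 differences of -0.38 to -1.94 with overlap. Another 6 members, among them Il6, Nos2 and Il12b, were below the expression filter, at 1.80 FPKM or less in all 6 libraries.

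Immediate early genes, which handling of cells can induce, were also mixed. Of 13 tested members, 5 were above 0 and 8 below, with a median of -0.17 (-0.39 to 0.02). Nr4a1, a nuclear receptor of Ly6c-low monocytes and of receptor signalling (chr15:101266846-101274795), was separated and lower, at 38.8, 43.5 and 28.2 FPKM in early symptoms and at 10.9, 10.9 and 12.0 FPKM at end stage, a log2 difference of -1.60 ± 0.50 (SE, unadjusted p = 0.00717 by limma). Dusp1 and Ier2, induced by stress and growth factors, were separated in the other direction, with log2 differences of 1.05 and 0.73. Fos had one of -0.41 with overlap. The list of alternative activation genes had a median of -0.60 over 14 genes and opposite extremes in Retnla and Chil3. The median was 0.25 without early replicate 1, and 0.08 with neutrophil and erythroid terms in the fit. Pparg was separated and lower and Stat6, the transcription factor of IL-4 signalling, separated and higher, at 135.9, 104 and 96.6 FPKM in early symptoms and at 149, 137.9 and 137.7 FPKM at end stage.

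Genes of mitochondrial respiration and protein synthesis leaned lower. Of 22 oxidative phosphorylation genes, 6 were separated and lower, none was higher, and the median was -0.29 (-0.44 to -0.20). Cox7b, a subunit of cytochrome oxidase, was at 110.5, 49.1 and 59.6 FPKM in early symptoms and at 41.2, 34.7 and 39.8 FPKM at end stage. Ndufa1, a complex I subunit, was at 198, 219 and 233 FPKM in early symptoms and at 140, 143 and 142 FPKM at end stage. Cox5a, Ndufa2, Uqcrh and Cox6c were the other separated members, with log2 differences of -0.45 to -0.71. Of 28 ribosomal protein genes, 4 were separated and lower, Rps23, Rps24 and Rpl37 among them, 27 were below 0, and the median was -0.38 (-0.60 to -0.19). Rps24 was at 25.6, 15.6 and 13.9 FPKM in early symptoms and at 9.63, 8.67 and 11.3 FPKM at end stage. Many ribosomal protein genes have processed pseudogenes, so their counts are uncertain.

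Heat shock genes had a median of -0.70 over 12 genes, which was -0.29 without early replicate 1 and -1.10 without early replicate 3. Dnaja1, a cochaperone of Hsp70, was at 50.9, 28.6 and 25.8 FPKM in early symptoms and at 16.02, 17.8 and 14.6 FPKM at end stage, and Hsp90aa1 was the other separated member. Dnajb9, a chaperone of the endoplasmic reticulum, was at 8.51, 4.06 and 2.74 FPKM in early symptoms and at 1.43, 1.29 and 0.93 FPKM at end stage, while the list of unfolded protein and integrated stress genes as a whole had a median of 0.03 (-0.15 to 0.09), with Sesn2 separated and higher. In glycolysis, Gpi1, which converts glucose 6-phosphate to fructose 6-phosphate, was at 181, 344 and 667 FPKM in early symptoms and at 858, 727 and 947 FPKM at end stage. Pkm was separated and higher and Pgk1 separated and lower, and the median over 19 genes was 0.05 (0.10 to 0.23).

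Cell cycle genes had positive differences in 20 of 21 members, with a median of 0.56 and 1 member separated. Mcm7, part of the replicative helicase, was at 26.4, 37.8 and 57.2 FPKM in early symptoms and at 76.0, 57.5 and 61.1 FPKM at end stage. The list scored 3.89, 4.72 and 5.72 in early symptoms and 5.40, 5.18 and 5.41 at end stage, so that early replicate 3 was the highest library and early replicate 1 the lowest. Neutrophil scores had the same lowest and highest library, and their part in this difference was not tested. The list's median was 0.14 without early replicate 1 and 1.05 without early replicate 3. It was -0.07 with terms for the microglia and neutrophil scores in the fit, which were chosen after seeing the data.

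Levels at end stage followed the GC content of the transcripts. A GENCODE transcript gave a GC content for 9863 of the tested genes (95.8%). With genes split into 5 equal bins by GC content, from the lowest to the highest bin, the median log2 difference was -0.34, -0.19, -0.07, 0.15 and 0.33. Each end-stage library showed it: its level relative to the mean of the 11 nerve libraries was higher in the top than in the bottom bin by 0.50, 0.70 and 0.55 in replicates 1, 2 and 3. In the early libraries that difference was -0.17, -0.15 and -0.02, and in the 5 WT-marrow libraries it was -0.63 to -0.18. Among the 6 microglia libraries it was 0.73 in end-stage replicate 2 and -0.33 to 0.11 in the others. Genes separated and higher at end stage had a median GC content of 54.9%, those separated and lower 44.2%, and all tested genes 49.6%. The 12 leading lower genes had a median of 44.9% and the 12 leading higher genes, 11 of which had a value, 53.7%. By transcript length the 5 bins differed by less, with medians from -0.11 to -0.02.

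**Figure D3:**
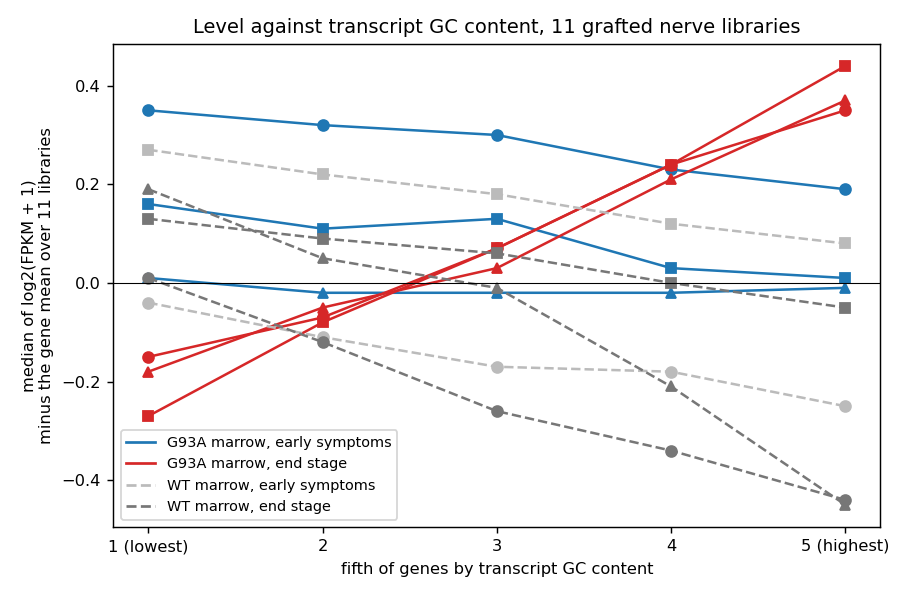
Median level of each of 5 equal bins of genes by transcript GC content (horizontal axis) in each of the 11 grafted nerve libraries, as log2(FPKM + 1) minus the gene's mean over the 11 (vertical axis), with early G93A-marrow libraries in blue, end-stage ones in red and WT-marrow libraries dashed in grey. The 3 end-stage lines climb by 0.50 to 0.70 from the lowest to the highest bin, while no other line climbs.

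The part of GC content in the gene differences above was not tested. The leading genes were chosen by their uncorrected differences, and separated genes were not counted again after a correction. Values are given here from a fit in which each library was corrected for GC content. That fit called 0 genes by limma, with 263 at an unadjusted p under 0.05. The median size of the difference was 2.26 over the 12 leading higher genes and 2.42 over the 12 leading lower genes in it, against 2.37 and 2.34 without the correction. The interferon list's median was -0.54, the oxidative phosphorylation list's -0.28 and the class II list's -1.66. The median GC content of these lists was 47.5%, 48.3% and 53.4%.

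The same stages were sampled with WT marrow. The G93A-marrow and WT-marrow comparisons share no library. The test of the difference between them called 0 of 10299 genes by limma (0.0%), with a smallest adjusted p of 0.56 and 912 genes at an unadjusted p under 0.05 (8.86%). WT marrow by itself also gave 0 genes (0.0%), with 847 at an unadjusted p under 0.05 (8.22%). Some list medians had opposite signs, a difference that was not tested by list. Class II genes had a median of -1.45 with G93A marrow and 1.19 with WT marrow, ribosomal protein genes -0.38 and 0.91, neutrophil markers 1.07 and -0.68, and cell cycle genes 0.56 and -0.82. In these lists WT-marrow end-stage replicates 1 and 3 lay farther from the early libraries than replicate 2 for ribosomal and cell cycle genes, and replicate 2 lay among or beside them for class II and neutrophil genes. Class II scores were 7.0, 5.23 and 6.61 in end-stage replicates 1, 2 and 3 against 4.84 and 5.92 in early symptoms, and neutrophil scores were 9.65, 11.56 and 10.50 against 11.33 and 11.43. Interferon genes were below 0 in both, at -0.64 and -0.55. With WT marrow H2-Ab1 was at 1057 and 690 FPKM in early symptoms and at 6556, 675 and 3229 FPKM at end stage, so the spread between mice was again wide. Its difference between marrows had a log2 value of -3.34 ± 1.57 (SE) and an unadjusted p of 0.0546 by limma. Prg2 was higher at end stage with WT marrow too, at 0.02 and 4.75 FPKM in early symptoms and at 2736, 370 and 6536 FPKM at end stage. With WT marrow C3 was at 103.2 and 92.4 FPKM in early symptoms and at 21.2, 44.8 and 24.3 FPKM at end stage. Its log2 difference between marrows was 3.36 ± 0.84 (SE, unadjusted p = 0.00163 by limma). C3 was named for its p with G93A marrow, whose libraries enter this test too, so the value between marrows is not independent of that choice. Of the 12 leading lower genes, 3 had a lower value at end stage with WT marrow, and of the 12 higher genes, 8 had a higher one. Over all genes, 45.2% had a positive difference with WT marrow. Whether the leading genes depart from that share was not tested.

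The same stages were also compared in spinal cord microglia of G93A-marrow mice. The test of the difference from nerve macrophages called 0 of 10786 genes by limma (0.0%), with a smallest adjusted p of 0.945 and 459 genes at an unadjusted p under 0.05 (4.26%). Microglia alone gave 0 genes (0.0%) and 77 at an unadjusted p under 0.05 (0.714%), with a median SD between mice of 0.24 and 0.31. Sema6b was at 2.29 to 2.85 FPKM in early and 1.28 to 2.46 FPKM in end-stage microglia. Its difference between the cell types had an unadjusted p of 0.000448 by limma. Sema6b had the smallest p of the nerve comparison, whose libraries enter this test too, so this p was partly fixed by that choice. Il1b was at 8.83, 17.4 and 54.3 FPKM in early and at 3.58, 3.2 and 0.73 FPKM in end-stage microglia. Its difference between the cell types had an unadjusted p of 0.00395 by limma. Il1b had the smallest p of the microglia comparison, so the same limit applies. Early nerve replicate 3 was the library of its group closest to the end-stage ones, at r = 0.91 to 0.94. Leaving it out therefore tends to widen the difference between stages. Without it, the test of the difference between the cell types called 7 genes in place of 0. They were Chit1, Troap, Ska3 and Kifc1, with the greater difference in nerve macrophages upwards, and Akr1c18, Abcg3 and Rras downwards, and they were named after their values were seen. Abcg3 is among the leading lower genes above.

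Nerve macrophages of non-grafted G93A mice were deposited in a separate table, which may have been scaled on its own, so their values stand beside these without a test. Early symptoms and end stage were compared within it over 4 mice each, at mean ages of 152.6 and 169.4 days, in a fit of 14 libraries. None of 10289 genes passed by limma (0, 0.0%), with 366 at an unadjusted p under 0.05 (3.56%), and 100 genes were separated and higher (0.972%) and 151 separated and lower (1.47%). All 11 leading lower genes tested there were also lower at end stage, 3 of them at an unadjusted p under 0.05, and 9 of the 12 leading higher genes were higher, 2 of them at that level. Over all genes tested there, 47.6% had a positive difference. Whether the leading genes depart from that share was not tested. Cd2 was at 8.74 to 35.01 FPKM in early symptoms and at 0.00 to 19.6 FPKM at end stage, Clec4b1 at 21.9 to 58.7 and 5.15 to 29.8 FPKM, and Abcg3 at 3.36 to 13.8 and 0.00 to 5.75 FPKM. Crispld2 was separated there as well, at 49.3 to 82.5 FPKM in early symptoms and above that range, up to 153 FPKM, in all 4 end-stage libraries, a log2 difference of 0.99. Nr4a1 was at 20.04 to 65.0 FPKM in early symptoms and at 4.55 to 21.6 FPKM at end stage, a log2 difference of -1.81. Retnla was at 85.2 to 4143 FPKM in early symptoms and at 6.35 to 471 FPKM at end stage, a log2 difference of -4.91. Prg2 had a log2 difference of 1.18 with overlap, at 10.7 to 225 and 1.31 to 1015 FPKM. By list, class II genes had a median of -1.0 and interferon genes one of -0.72, beside -0.02 over all genes, while neutrophil markers were at 0.03 and oxidative phosphorylation genes at 0.05.

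**Figure D4:**
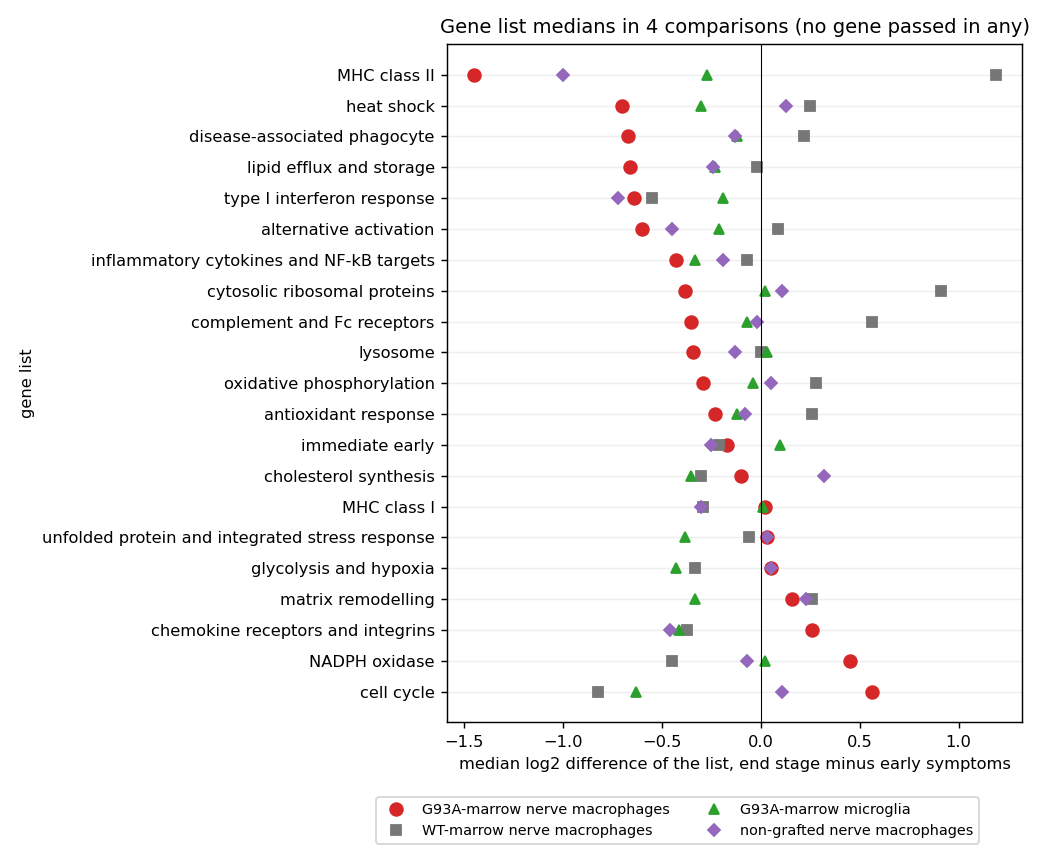
Median log2 difference, end stage minus early symptoms, of each of 21 pathway lists in the G93A-marrow nerve macrophages (red circles), the WT-marrow nerve macrophages (grey squares), the G93A-marrow microglia (green triangles) and the non-grafted G93A nerve macrophages (purple diamonds). Class II MHC is at -1.45, 1.19, -0.27 and -1.0 in that order, and the interferon list is below 0 in all 4.

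**Figure D5:**
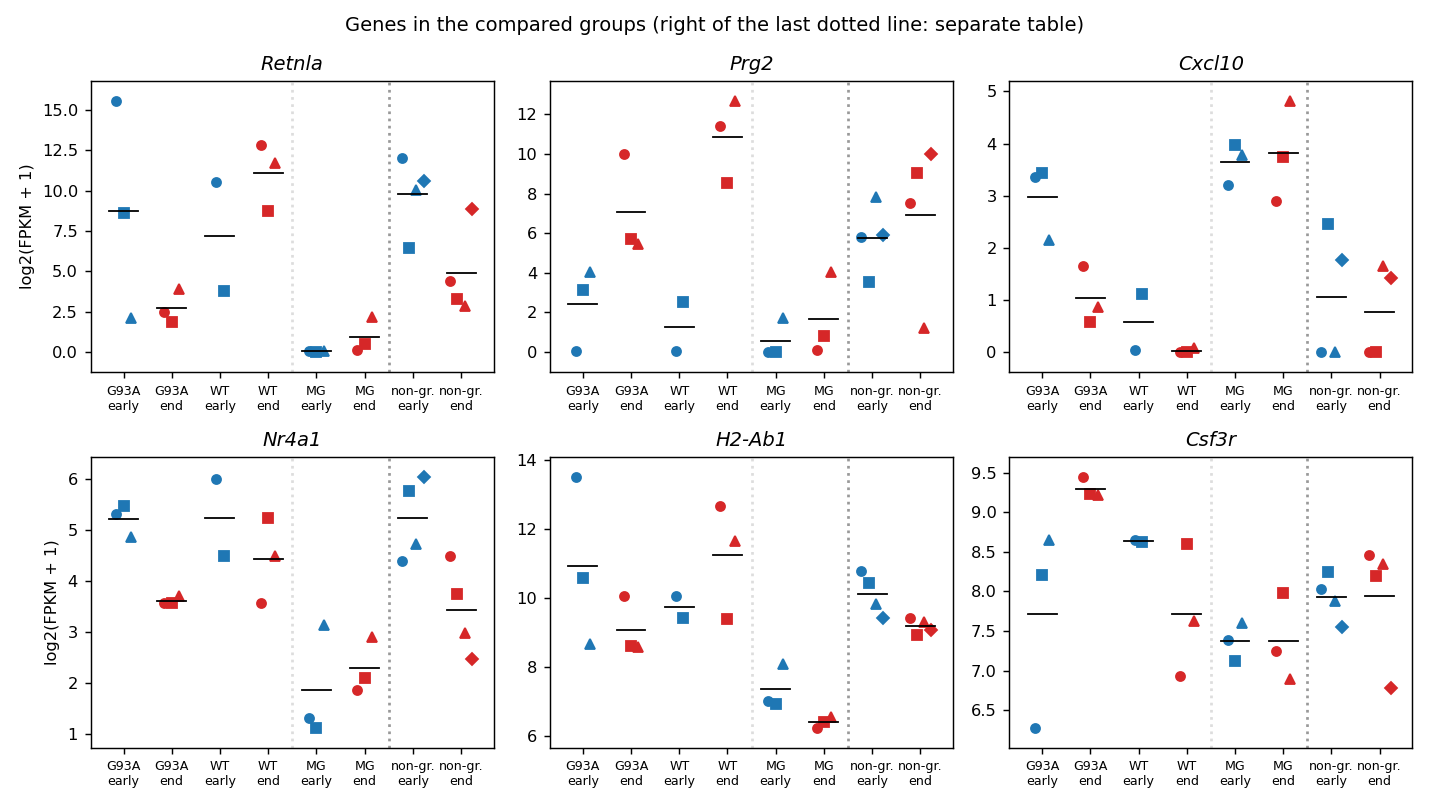
Levels as log2(FPKM + 1) of 6 genes in each library of the compared groups, early symptoms in blue and end stage in red, with the mean as a black line; G93A and WT name the marrow of grafted nerve groups, MG is G93A-marrow microglia, and the non-grafted nerve groups (non-gr.) come from a separate table. Nr4a1 lies between 10.9 and 12.0 FPKM in all 3 end-stage G93A-marrow libraries and between 28.2 and 43.5 FPKM in the early ones, while Retnla and H2-Ab1 spread widely among early mice.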

How the data were processed

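RNA was sequenced from CD11b-selected cells, 1 mouse a library, and the values used are FPKM per gene that the authors deposited in 1 table for grafted and 1 for non-grafted mice, per the file headers. The build is mm10, per the submitters' processing notes; neither the aligner, nor the counting tool, nor the strand setting is named in those notes. FPKM carry no recoverable read depth, so no counting interval is given. The numbers of mice limit the precision.

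Values were taken as log2(FPKM + 1), with a filter at a mean of 1 FPKM over the libraries of a fit. Group means were compared with limma 3.58.1 in R 4.3.3 (lmFit and eBayes with a trend, two-sided) with Benjamini-Hochberg adjustment over all tested genes. A run on simulated data came first. At the spread of these data it checked only the size of the estimates, and it required calls only at a smaller spread. It therefore does not show how many true differences the fit would call here. All 11 grafted nerve libraries entered the main comparison, 6 microglia libraries were added for the difference between cell types, and the non-grafted table was fitted alone. Replicate numbers were not taken to pair the samples, also for nerve against microglia. There, libraries with the same number correlated over 0.1 at end stage but not in every early pair. Nerve and microglia libraries with other numbers were at 0.06 or less at end stage.

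Named genes are the 12 largest differences in each direction without overlap and with a mean of at least 5 FPKM in the higher group, the member of each of 37 lists with the smallest p, and 15 genes named in any case; some genes are not reported here. Other list members are named where their groups did not overlap, or as examples chosen after their values were seen. The comparison, the members and the lists were chosen with earlier results of these data known. GC content and length came from GENCODE transcripts. Alternatives were other pseudocounts, filters and scaling, single libraries left out, a replicate block, the compared groups alone and marker-score terms. Those for GC content, microglia with neutrophil terms, quality weights, blocks within each stage and leaving out WT-marrow end-stage replicates 1 and 3 were chosen after seeing the data. Features with several symbols were left out of the lists. The 4 non-grafted nerve libraries whose labels conflict on genotype were not used here.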

Additional observations from a re-analysis of the deposited data

Results flagged for a closer look

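Csf3r, the G-CSF receptor of neutrophils, had 1 end-stage library far from the others among the non-grafted G93A nerve macrophages. It was at 353, 291, 326 and 109 FPKM in replicates 1 to 4, and on the log2(FPKM + 1) scale the gap between the lowest value and the next was 0.836 of the whole range. In that library the neutrophil markers made up 11.6% of all FPKM and the erythroid markers 16.7%, against 26.1% to 30.5% and 0.674% to 4.71% in the other end-stage libraries. Their part in the Csf3r value was not tested. Chance gives such a gap in about 1 in 20 groups, and 26 combinations of gene and group were examined.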

How the results depend on the processing

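The count of genes called by limma between end stage and early symptoms was 0 in each setting but one: with no filter on low values it was 1 (4933413J09Rik). With no filter it was also 1 for the difference between nerve macrophages and microglia (Masp2) and 1 for the non-grafted mice (Neu3). Leaving out 1 library at a time gave 0 to 7 genes for the difference between nerve macrophages and microglia, and 0 in the other 3 comparisons. A replicate block gave 0 calls in all 4 comparisons; correlations of early and end-stage nerve libraries with the same number were -0.11, 0.21 and 0.02. Nerve and microglia libraries with the same number correlated at 0.15, -0.04 and 0.19 in early symptoms and at 0.14, 0.18 and 0.32 at end stage. Those with other numbers correlated at -0.21 to 0.15 in early symptoms and at -0.22 to 0.06 at end stage. Not all same-number values were over 0.1, so the numbers were not taken as pairs. Whether a number marks the same mouse in both tissues was not tested. Blocks of same-numbered nerve and microglia libraries within each stage, added after seeing the data, also gave 0 calls, with 601 genes at an unadjusted p under 0.05 beside 459. Of 71 named genes, 11 changed sign in at least 1 of 19 alternatives; the cause was not tested. The leading genes were chosen for groups that do not overlap, which largely fixes their sign. With median-ratio scaling the log2 difference was 0.01 for Adgre1 and 0.02 for Cybb, and with the GC correction 0.07 and 0.28. With quality weights it was 0.03 for Adgre1 and -0.19 for Apoe. With neutrophil and erythroid terms it was 0.82 for Adgre1, 0.08 for Csf1r, -0.40 for S100a8, -0.02 for Il1b and 0.10 for Mrc1. With microglia and neutrophil terms it was 0.94 for Adgre1, 0.44 for Csf1r, -0.50 for S100a8, -0.03 for Il1b, 0.02 for Mrc1 and 0.03 for Pmp22. S100a8 is itself a marker in the neutrophil score, so its values in these fits are not independent of that term. With Schwann cell and fibroblast terms it was 0.00 for Hba-a1. Leaving out single libraries gave ranges of -0.77 to 0.75 for Adgre1, -1.19 to 1.88 for Apoe, -1.95 to 0.02 for Ccr2, -0.32 to 0.33 for Cybb, -0.57 to 0.10 for Hba-a1, -0.11 to 0.48 for Il1b, -2.10 to 0.25 for Mrc1, -2.27 to 0.06 for Pmp22, -1.13 to 0.03 for Prf1 and -0.43 to 1.11 for S100a8. At an unadjusted p under 0.05 there were 1105 genes without early replicate 3 and 212 without early replicate 1, beside 435 with all libraries. Early replicate 3 was the library of its group that correlated most with the end-stage ones.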
